A study of Homo sapiens with 6 samples.

Results

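The cadherin family was followed in WM164 cells, an established line of BRAF-mutant melanoma, by taking 47 genes. They encode classical and other single cadherins, desmosomal cadherins, FAT, Dachsous and CELSR cadherins, non-clustered protocadherins, and alpha- and delta-type catenins of the cadherin complex. A gene was measured where a probe set of the array carried its symbol and no other, and 44 of the 47 were, each by 1 probe set, among 18417 genes in all. CTNND1 shares its probe set with a read-through gene, and CDH4 and CDH13 had no probe set with their symbol alone, so these 3 genes were not analysed here. The treated samples were 3 IDTC colonies, WM164 cells kept for 60 days in 500 nM PLX4032 (vemurafenib, an inhibitor of mutant BRAF) and described in the labels as resistant. They were set against 3 samples of parent WM164 cells, called untreated in the labels and exposed to the solvent DMSO according to the series title. Colonies and parent cells shared the same serum-supplemented RPMI medium and are 1 cell line. The design text states triplicate cells with RNA isolated separately for each sample, but not whether each colony sample was 1 colony or a separate treatment, so the spread behind every p-value is that between these arrays and may be technical.

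Cadherins are calcium-dependent adhesion proteins whose outer domains bind the same or a related cadherin on the next cell. The tails of classical cadherins hold beta-catenin or plakoglobin and p120-type catenins, and alpha-catenin links this complex to actin. Melanocytes of normal skin adhere to keratinocytes through E-cadherin (CDH1), and melanoma cells often carry N-cadherin (CDH2) instead. FAT, Dachsous and CELSR proteins are very large cadherins known for orienting cells within a tissue.

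The values are log2 expression values, on which a step of 1 is 2-fold, and differences are colony minus parent. The correlation across genes was 0.997 to 0.998 within a group and 0.967 to 0.969 between a colony and a parent array. Array medians over genes lay between 6.98 and 7.02, and the lowest was used as a limit. Means below it were marked as dim, and whether they lay above background was not tested. Of the 44 genes, 35 (79.5%) were dim in both groups, against 47.2% of all genes. CTNNA1 lay just under the limit (6.92 in both groups) and CDH24 just above it (7.01 in colonies and 7.05 in parent cells). Of 8 melanocyte lineage markers measured, 3 were higher, 3 lower and 2 short of the threshold, while 43.8% of all genes passed the test given below. PMEL (12.86 ± 0.00 in colonies and 12.52 ± 0.02 in parent cells, mean ± SD, n = 3 each), SOX10 (11.14 ± 0.09 in colonies and 10.73 ± 0.06 in parent cells) and S100B (difference 0.57) were higher, MLANA (-1.45), S100A1 (-0.85) and TYRP1 (-0.23) were lower, and MITF (0.00) and TYR (-0.12) did not pass. TYRP1 was dim in both groups, and the other 7 were not.

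In the limma test at an adjusted p under 0.05, 14 of the 44 genes passed (31.8%), against 43.8% of all genes. Higher in colonies were 5 (11.4%, against 20.9% of all genes) and lower 9 (20.5%, against 22.9%). Among the 9 genes with a group above the array median 6 passed the test (66.7%, against 68.7% of all such genes), and among the 35 dim ones 8 did (22.9%, against 15.9%). A difference of at least 2-fold was seen in 6 genes (13.6%, against 5.41% of all genes). PCDH18, CELSR2 and FAT4 rose by that much (3 of 44, against 2.65% of all genes), and CDH2, DSC2 and FAT1 fell (3 of 44, against 2.76%). The 2 groups did not overlap in 15 of the 44 genes (34.1%, against 50.8% of all genes), namely the 14 that passed and CDH22. The median difference was -0.04 over the 44 genes and -0.0042 over all genes. With 3 arrays against 3, an exact permutation test of 1 gene cannot go below p = 0.10, so the pooled spread of limma was used throughout.

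**Figure D1:**
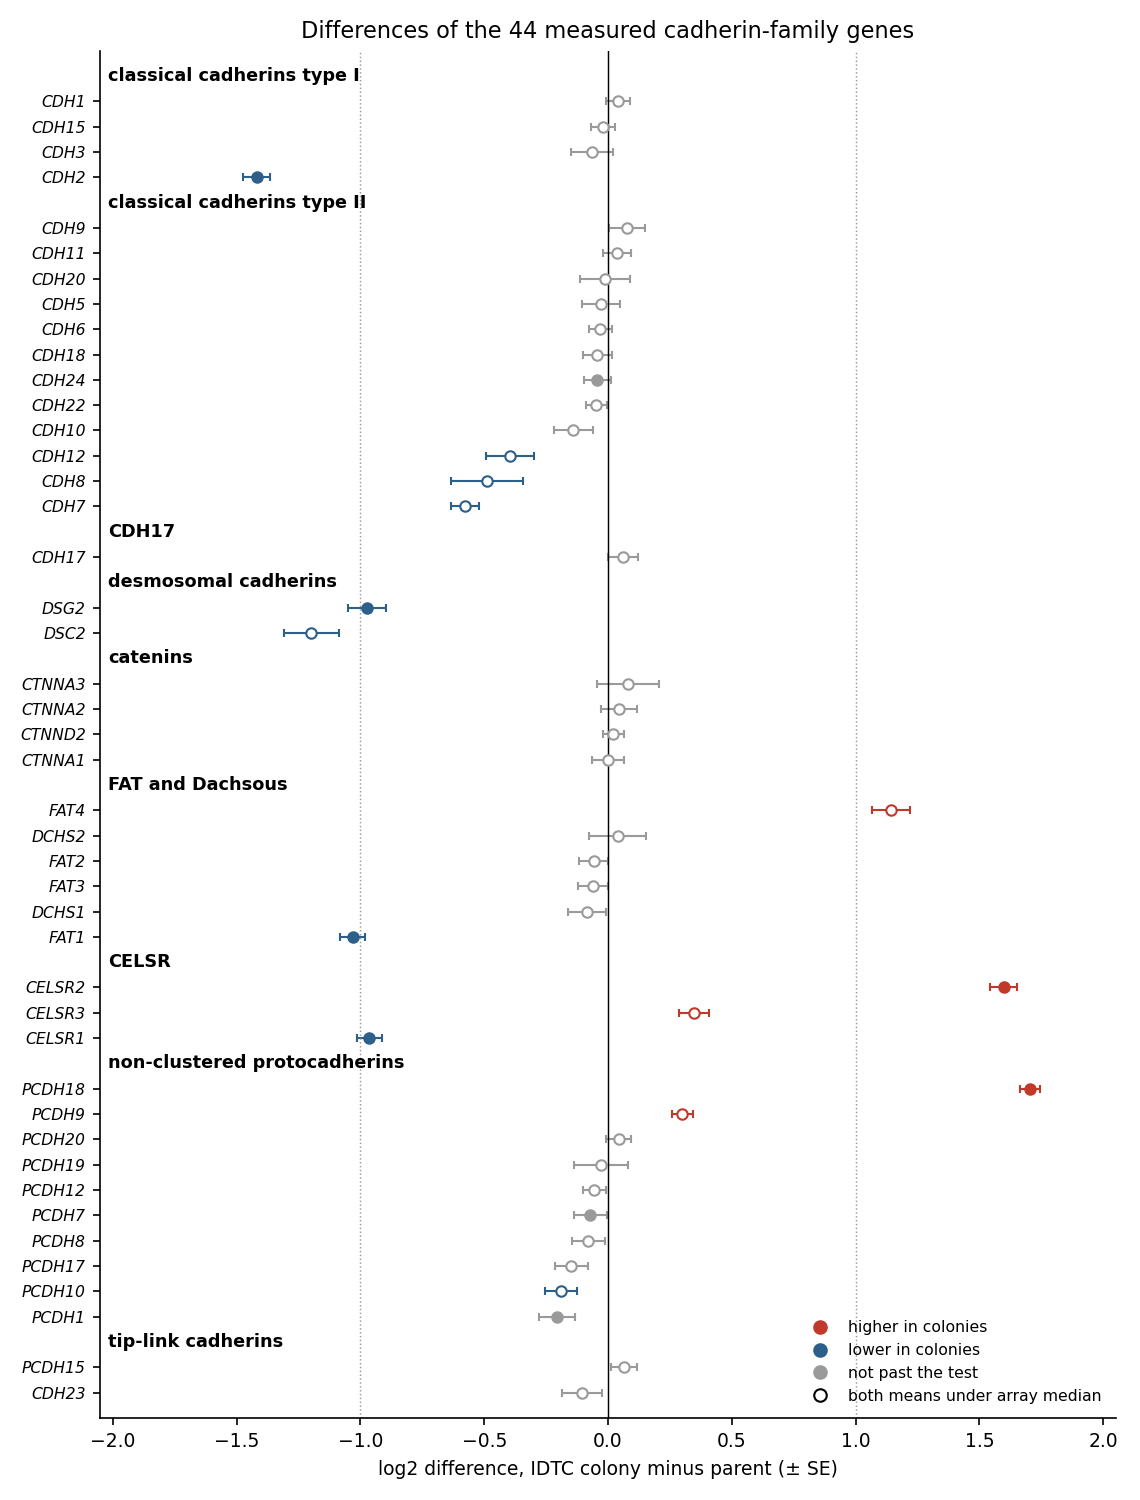
Log2 difference, colony minus parent, with its SE (x axis) for the 44 measured genes, arranged by role (y axis); red marks genes higher in colonies, blue lower, grey not past the test, and open circles genes dim in both groups. Most genes lie near 0, and PCDH18 (1.71), CELSR2 (1.60) and CDH2 (-1.42) lie farthest from it.

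N-cadherin was the only one of 4 measured type I classical cadherins past the test, while 43.8% of all genes passed. The other 3 were dim in both groups, and 15.9% of all such genes passed. CDH2 (probe set 8022674) was at 9.04, 9.14 and 9.22 in colonies, against 10.56, 10.54 and 10.55 in parent cells. Every colony lay below every parent sample, and the fall was 2.67-fold (log2 difference -1.42 ± 0.06, SE, adjusted p = 1.3e-06). CDH2 stayed above the array median in both groups. E-cadherin (CDH1, probe set 7996837) had 4.86, 4.81 and 4.81 in colonies and 4.81, 4.72 and 4.84 in parent cells. These values overlap, lie far under the array median, and differ by 0.04 with a 95% interval of -0.08 to 0.16. P-cadherin (CDH3), its neighbour on chromosome 16 and a cadherin of basal epithelial cells, had 5.03, 5.07 and 4.92 in colonies and 4.89, 5.16 and 5.16 in parent cells, again overlapping (-0.07, interval -0.26 to 0.13). M-cadherin (CDH15), a cadherin of muscle precursors, was dim as well, with a difference of -0.02 (interval -0.13 to 0.09).

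Of the 12 type II classical cadherins of the set, 3 were lower, none was higher and 9 did not pass the test, and 11 were dim in both groups. Over all genes 22.9% were lower, and 15.9% of those dim in both groups passed. CDH7, which is expressed in migrating neural crest of the chick embryo, was at 4.43, 4.53 and 4.57 in colonies and at 5.15, 5.04 and 5.08 in parent cells. Its groups were apart (-0.58 ± 0.06, adjusted p = 0.0001). CDH8, a cadherin of developing neurons, had 4.78, 4.78 and 4.22 in colonies and 5.10, 5.06 and 5.10 in parent cells. The third colony lies well below the others, and the difference of -0.49 ± 0.14 (adjusted p = 0.028) became -0.30 without that array, while leaving out any 1 parent array ended the call (adjusted p = 0.0804 to 0.0938). CDH12, another neuronal cadherin, had 4.90, 4.86 and 4.52 in colonies and 5.17, 5.17 and 5.13 in parent cells (-0.40 ± 0.10, adjusted p = 0.013), with the same colony lowest. That call ended without parent replicate 2 (adjusted p = 0.0503). VE-cadherin (CDH5), the junctional cadherin of endothelium (-0.03, interval -0.21 to 0.16), and CDH11, typical of mesenchymal cells (0.04, interval -0.10 to 0.17), did not pass the test. CDH24, the only one of these 12 above the array median, differed by -0.04 (interval -0.17 to 0.08). CDH19, a type II cadherin outside the set that was above the array median in parent cells, is given below. CDH6, CDH9, CDH10, CDH18, CDH20 and CDH22 had differences from -0.14 for CDH10 to 0.08 for CDH9, and intestinal cadherin (CDH17), which has no classical tail, one of 0.06.

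Both desmosomal cadherins of the set fell, while 22.9% of all genes did. Desmoglein 2 (DSG2, probe set 8020779), with desmocollin 2 among the most widely expressed desmosomal cadherins, was at 7.90, 7.89 and 8.02 in colonies, against 9.07, 8.82 and 8.84 in parent cells. All colonies lay below all parent samples (-0.97 ± 0.08, 1.96-fold lower, adjusted p = 3.6e-05). Desmocollin 2 (DSC2, probe set 8022711) was at 5.05, 4.77 and 4.96 in colonies and 6.31, 5.93 and 6.13 in parent cells, also apart (-1.20 ± 0.11, 2.30-fold lower, adjusted p = 8.1e-05) but dim in both groups. Among 10 other desmosome genes 1 was lower, 0 higher and 9 short of the threshold, 9 of the 10 being dim. Over all genes 43.8% passed, and 15.9% of those dim in both groups. The one that fell was PERP, a membrane protein of desmosomes and a p53 target (9.59 ± 0.07 in colonies and 10.27 ± 0.08 in parent cells, -0.68 ± 0.06). The plaque genes DSP (4.62 ± 0.01 in colonies and 4.53 ± 0.04 in parent cells) and PKP2 (6.07 ± 0.14 in colonies and 5.98 ± 0.06 in parent cells), named after their values were seen, did not pass.

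CDH2, DSC2 and DSG2 lie on 1 stretch of chromosome 18. DSC2 and DSG2 are in the cluster that also holds the epithelial desmogleins and desmocollins, and CDH2 lies apart from it. The promoter window of CDH2 begins at base 28177081, and those of DSC2 and DSG2 at 31102372 and 31497927. DSC3, DSC1, DSG1, DSG4 and DSG3 stand between CDH2 and DSG2 in the gene order. They were dim, with differences from -0.10 for DSC3 to 0.09 for DSG1, none past the test. The 50 nearest genes above the median expression (25 on each side) had a median difference of -0.02 around CDH2 and DSC2 and 0.01 around DSG2. Of the 50 around CDH2, 20 rose and 17 fell. Over the array, 68.7% of genes with a group above the array median passed. With only genes above the median expression tested, 3093 were higher and 3642 lower. With the neighbours' median subtracted, CDH2 was at -1.40, DSC2 at -1.18 and DSG2 at -0.99.

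**Figure D2:**
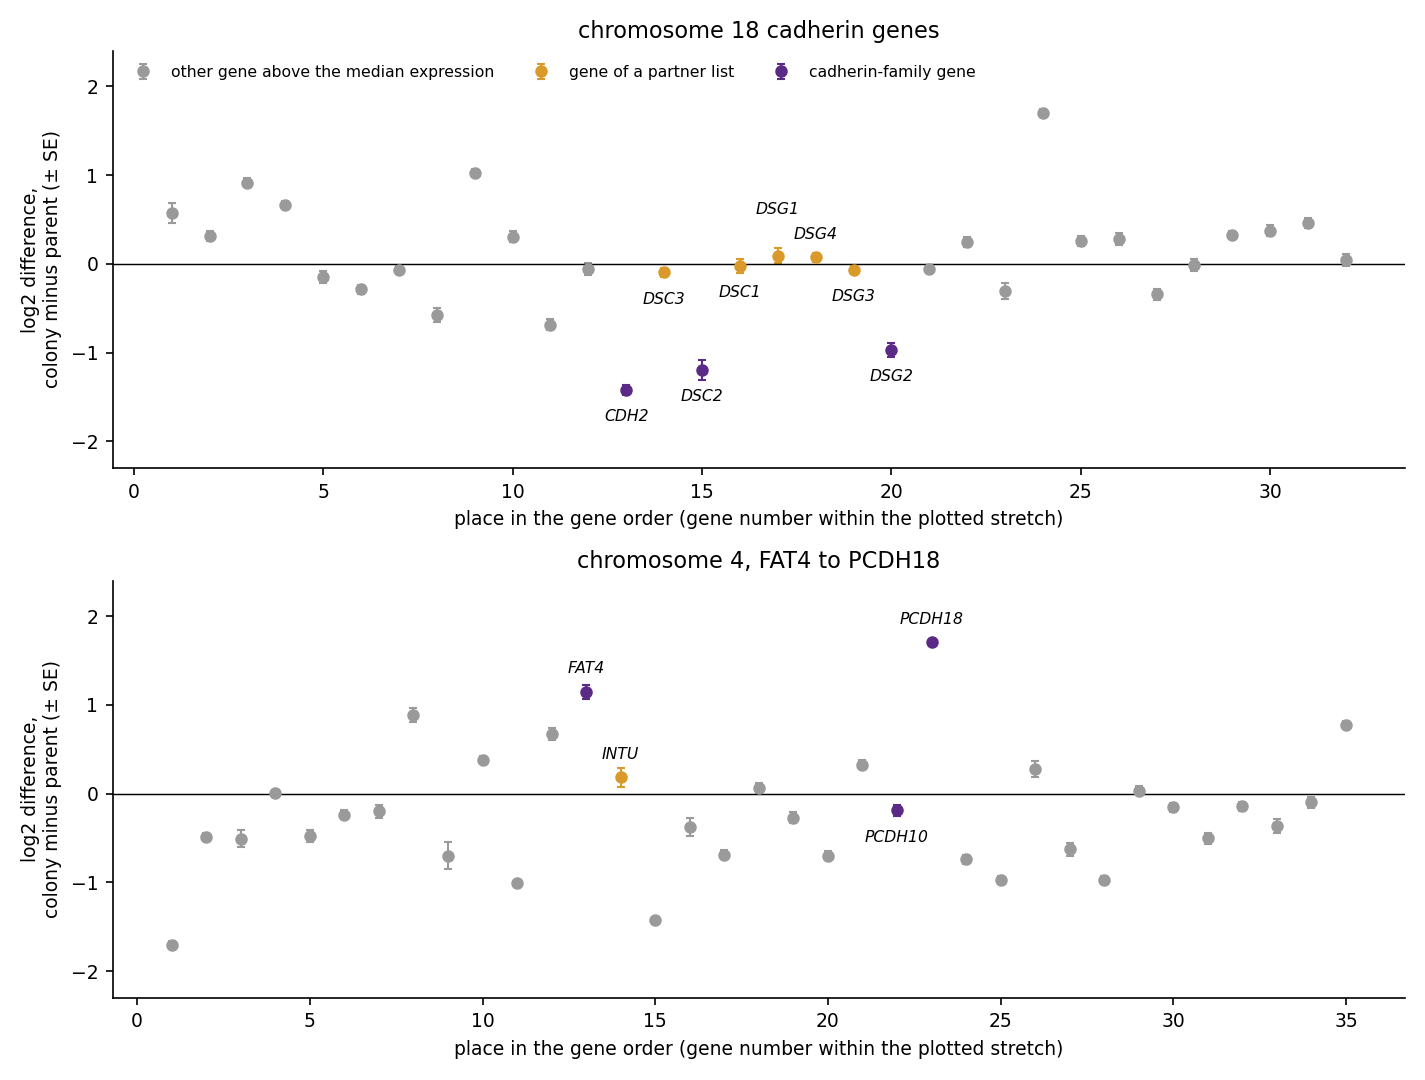
Log2 difference, colony minus parent, with its SE (y axis) against the place of each gene in the gene order (x axis) for the chromosome 18 stretch around CDH2 and DSG2 and the chromosome 4 stretch around FAT4 and PCDH18; purple marks cadherin-family genes, orange genes of the partner lists and grey other genes above the median expression. CDH2, DSC2 and DSG2 lie at -1.42, -1.20 and -0.97 among neighbours of both signs, and FAT4 and PCDH18 lie at 1.14 and 1.71 where most neighbours are below 0.

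The promoter windows of these 3 genes, which were all lower in colonies, are given from RefSeq (build GRCh38.p14). They run from 250 bases before to 50 bases after the gene start, 5′ to 3′ on the gene's strand. Capitals mark E-boxes, CANNTG, the motif family bound by SNAI, ZEB and TWIST proteins. CANNTG reads the same on both strands, and CACCTG with its reverse complement CAGGTG, the form preferred by SNAI and ZEB proteins, is a subset of it.
CDH2 (chr18:28177081-28177380, minus strand): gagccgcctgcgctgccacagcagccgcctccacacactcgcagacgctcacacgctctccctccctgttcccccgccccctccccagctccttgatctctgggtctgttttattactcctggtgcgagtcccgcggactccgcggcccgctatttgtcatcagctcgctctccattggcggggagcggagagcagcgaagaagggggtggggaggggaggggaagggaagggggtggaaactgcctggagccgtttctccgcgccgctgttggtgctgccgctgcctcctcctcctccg
DSC2 (chr18:31102372-31102671, minus strand): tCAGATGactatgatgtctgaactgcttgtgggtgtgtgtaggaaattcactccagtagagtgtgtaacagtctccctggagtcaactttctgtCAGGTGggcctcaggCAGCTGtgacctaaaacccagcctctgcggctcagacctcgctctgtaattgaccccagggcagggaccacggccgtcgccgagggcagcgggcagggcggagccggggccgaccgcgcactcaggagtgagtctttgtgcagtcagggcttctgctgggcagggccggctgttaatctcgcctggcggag
DSG2 (chr18:31497927-31498226, plus strand): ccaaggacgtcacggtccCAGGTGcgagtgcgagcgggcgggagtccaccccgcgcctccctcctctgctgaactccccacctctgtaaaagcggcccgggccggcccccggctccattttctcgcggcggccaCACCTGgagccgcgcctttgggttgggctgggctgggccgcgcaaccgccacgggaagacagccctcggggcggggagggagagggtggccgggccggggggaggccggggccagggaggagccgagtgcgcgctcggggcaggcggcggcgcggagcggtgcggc
CDH2 holds 0 E-boxes in this window, DSC2 holds 3, of which 1 is CAGGTG, and DSG2 holds 2, namely CAGGTG and CACCTG. Of 14237 promoter windows of genes tested, 64.1% hold CANNTG and 19.6% hold CACCTG or CAGGTG. Of the 29 windows matched among the 44 genes, 17 hold CANNTG (58.6%) and 4 hold CACCTG or CAGGTG (13.8%).

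The 4 measured catenins of the set, all dim in both groups, did not pass the test, and 15.9% of all such genes passed. CTNNA1, which encodes the alpha-catenin of most tissues, was at 6.89, 6.97 and 6.89 in colonies and 6.86, 6.85 and 7.04 in parent cells. The groups overlap and the 95% interval of the difference runs from -0.15 to 0.15. The neuronal and heart forms CTNNA2 (0.04) and CTNNA3 (0.08) and the neuronal delta-catenin CTNND2 (0.02) were dim in both groups. Over the 30 genes of the family that did not pass, the absolute difference stayed under 0.1 in 26 and reached 0.21 in PCDH1, and no 95% interval reached farther than 0.38 from 0.

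Catenins and adaptors outside the set numbered 15, with 8 higher, 4 lower (2 under quantile normalization) and 3 short of the threshold. A group lay above the array median in 13 of the 15, and 68.7% of all such genes passed. The actin-binding LIM protein gene ABLIM1 was at 7.14, 7.10 and 7.31 in colonies and 5.27, 5.62 and 5.75 in parent cells (1.64 ± 0.12). The actin crosslinker gene ACTN1 changed by -0.79 ± 0.04 and vinculin (VCL), which binds alpha-catenin under tension, by 0.65 ± 0.05. Beta-catenin (CTNNB1), chosen after its values were seen as the direct partner of the CDH2 tail, was at 11.88, 11.87 and 11.84 in colonies and at 11.55, 11.54 and 11.59 in parent cells. The groups were apart by 0.30 ± 0.04, opposite in sign to CDH2. Plakoglobin (JUP) was dim, with 5.80 ± 0.04 in colonies and 5.74 ± 0.10 in parent cells.

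**Figure D3:**
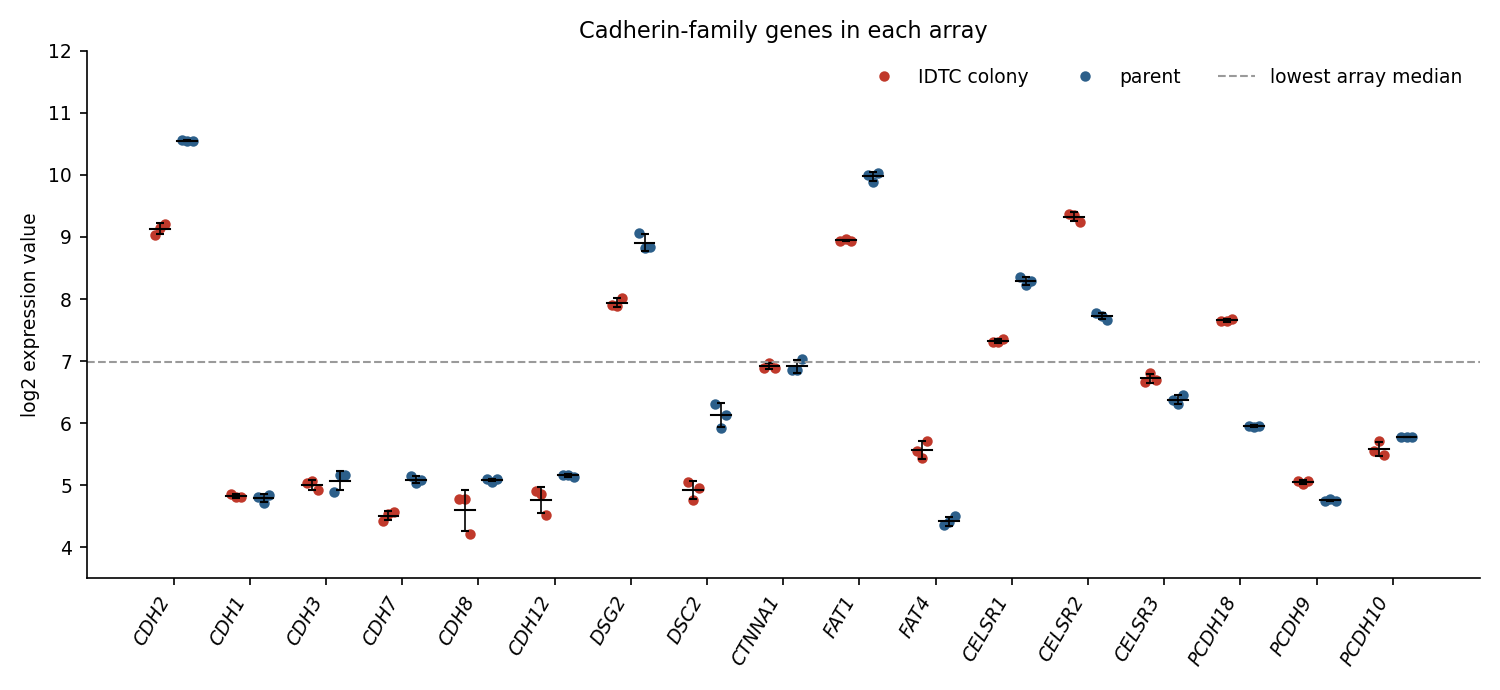
Log2 expression value in each array (y axis, points) for 17 genes of the family (x axis), with the mean and SD of each group; red marks the 3 IDTC colonies, drawn left of the 3 parent samples in blue, and the dashed line is the lowest array median (6.98). Values are to be compared within a gene; colonies and parent samples are apart for CDH2, FAT1, CELSR2 and PCDH18, and overlap for CDH1, CDH3 and CTNNA1.

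FAT and Dachsous cadherins split, with 1 higher, 1 lower and 4 short of the threshold among the 6. The share of all genes past the test was 43.8%. Both means were dim in 5 of the 6, and 15.9% of all such genes passed. FAT1 (probe set 8104079), a giant cadherin that binds actin regulators at cell edges, was at 8.94, 8.96 and 8.93 in colonies, against 9.99, 9.89 and 10.04 in parent cells. The colonies were tightly grouped and all below the parent samples (-1.03 ± 0.05, 2.04-fold lower, adjusted p = 3.8e-06). FAT1 lies near the end of chromosome 4, where its 27 expressed neighbours had a median of -0.26, which leaves -0.77 after subtraction. FAT4 (probe set 8097288), the receptor that pairs with the ligand DCHS1, was at 5.55, 5.44 and 5.72 in colonies and 4.36, 4.41 and 4.50 in parent cells. These groups were apart (1.14 ± 0.08, 2.21-fold higher, adjusted p = 1.8e-05), although both means were dim. Its neighbours on the same chromosome had a median of -0.31. The ligand gene DCHS1 had 6.14, 6.15 and 6.19 in colonies and 6.08, 6.30 and 6.37 in parent cells, which overlap (-0.09, interval -0.27 to 0.09). DCHS2 (0.04), FAT2 (-0.06) and FAT3 (-0.06) were dim in both groups.

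All 3 CELSR genes passed the test, in both directions, while 43.8% of all genes passed. A group lay above the array median in 2 of the 3, and 68.7% of all such genes passed. CELSR2 (probe set 7903632), a seven-pass cadherin studied in neurons and ciliated cells, was at 9.38, 9.35 and 9.24 in colonies, against 7.77, 7.73 and 7.67 in parent cells. It was 3.03-fold higher in colonies (1.60 ± 0.05, adjusted p = 7.0e-07) with no overlap. CELSR1 (probe set 8076757), the form known for planar polarity in skin, was at 7.30, 7.31 and 7.36 in colonies and 8.36, 8.22 and 8.30 in parent cells (-0.96 ± 0.05, adjusted p = 5.1e-06). CELSR3, which acts in axon guidance, was at 6.66, 6.81 and 6.70 in colonies and 6.38, 6.30 and 6.45 in parent cells. Its groups did not overlap (0.35 ± 0.06, adjusted p = 0.0021), and both means were dim. The 95% intervals of CELSR1 (-1.08 to -0.84) and CELSR2 (1.47 to 1.73) lie on opposite sides of 0, and the neighbours' medians were -0.13 for CELSR1 and -0.06 for CELSR2.

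Their partners in planar polarity also went both ways. In the list of Fat, Dachsous and polarity genes, 19 were measured, of which 4 were higher, 3 lower and 12 short of the threshold (43.8% of all genes passed). In 16 of the 19 a group lay above the array median, and 7 of these passed, against 68.7% of all such genes. Without parent replicate 1 the lower count was 5. VANGL2, which encodes a membrane protein that works with CELSR1 in planar polarity, was at 7.63, 7.68 and 7.57 in colonies and at 6.59, 6.52 and 6.26 in parent cells (1.17 ± 0.09). Its paralogue VANGL1 was at 8.27, 8.25 and 8.31 in colonies and at 9.41, 9.21 and 9.24 in parent cells (-1.01 ± 0.06). The paralogues thus differed in sign, as CELSR2 and CELSR1 did. PRICKLE2 changed by -0.83 ± 0.06 beside a neighbour median of -1.05.

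Non-clustered protocadherins are adhesion proteins studied mostly in the nervous system. Among the 10 measured 2 were higher, 1 lower and 7 short of the threshold, while 43.8% of all genes passed. Both means were dim in 7 of the 10, and 15.9% of all such genes passed. PCDH18 (probe set 8102792) had the largest difference of the 44 genes. It was at 7.64, 7.64 and 7.67 in colonies, against 5.95, 5.93 and 5.96 in parent cells, 3.26-fold higher (1.71 ± 0.04, adjusted p = 1.6e-07). The colony values lie above the array median and the parent values below it. PCDH10, which stands next to it on one side among the genes shown for chromosome 4, was at 5.56, 5.72 and 5.48 in colonies and at 5.77 in all 3 parent samples (-0.19 ± 0.06, adjusted p = 0.048). The 50 expressed neighbours of PCDH18 had a median of -0.35, and 31 of them fell while 10 rose. Over the array, with only genes above the median expression tested, 3642 were lower and 3093 higher. Relative to that median PCDH18 was at 2.06 and PCDH10 at 0.16, so the sign of PCDH10 turned. The call of PCDH10 ended in 8 of 12 alternatives, among them each parent array left out in turn (adjusted p = 0.0938 to 0.116), colony replicate 1 (0.136) and colony replicate 3 (0.134) left out, and the replicate block (0.0669).

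PCDH9 was at 5.08, 5.02 and 5.07 in colonies and at 4.75, 4.77 and 4.74 in parent cells, apart but dim (0.30 ± 0.04, adjusted p = 0.00072). The median of its neighbours on chromosome 13 was 0.21, which leaves 0.09. PCDH1, above the array median, was at 8.10, 8.26 and 8.09 in colonies and at 8.23, 8.42 and 8.42 in parent cells. These overlap, and the test was missed narrowly (-0.21 ± 0.07, adjusted p = 0.0542). Its neighbours' median on chromosome 5 was -0.27, and PCDH1 minus that median was 0.06. PCDH7, also above the array median and overlapping between groups, differed by -0.07 (interval -0.23 to 0.09). The remaining PCDH8, PCDH12, PCDH17, PCDH19 and PCDH20 were dim, with differences between -0.15 for PCDH17 and 0.04 for PCDH20. The tip-link cadherins of inner ear hair cells, CDH23 (-0.10) and PCDH15 (0.06), were dim too. Among 9 genes of their complex 1 passed the test, CIB2, a calcium-binding protein gene (0.76 ± 0.06). In 8 of the 9 both means were dim, and 15.9% of all such genes passed. Without parent replicate 2, 2 of the 9 were higher. Deposited values were identical in at least 2 arrays of a group for 16 of the 44 genes, and in all 3 for PCDH10 in parent cells and for CDH23 and PCDH20 in colonies, so an SD of 0 there is a property of the deposited values.

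The promoter windows of FAT1, CELSR2 and PCDH18 are given in the same way, because these genes and CDH2 were those with a difference of at least 2-fold and a mean above the array median in at least 1 group.
FAT1 (chr4:186726647-186726946, minus strand): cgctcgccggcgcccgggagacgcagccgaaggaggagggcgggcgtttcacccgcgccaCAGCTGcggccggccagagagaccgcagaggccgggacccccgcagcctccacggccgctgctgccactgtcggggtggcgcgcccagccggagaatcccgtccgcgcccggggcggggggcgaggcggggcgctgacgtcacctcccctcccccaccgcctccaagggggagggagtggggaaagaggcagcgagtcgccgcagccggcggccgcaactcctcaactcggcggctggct
CELSR2 (chr1:109249289-109249588, plus strand): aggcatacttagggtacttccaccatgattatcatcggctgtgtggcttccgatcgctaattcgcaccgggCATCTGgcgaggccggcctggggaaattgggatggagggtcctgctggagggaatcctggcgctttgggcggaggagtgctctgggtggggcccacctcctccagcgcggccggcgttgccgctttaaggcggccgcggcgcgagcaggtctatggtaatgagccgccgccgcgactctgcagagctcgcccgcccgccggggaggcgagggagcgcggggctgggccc
PCDH18 (chr4:137532445-137532744, minus strand): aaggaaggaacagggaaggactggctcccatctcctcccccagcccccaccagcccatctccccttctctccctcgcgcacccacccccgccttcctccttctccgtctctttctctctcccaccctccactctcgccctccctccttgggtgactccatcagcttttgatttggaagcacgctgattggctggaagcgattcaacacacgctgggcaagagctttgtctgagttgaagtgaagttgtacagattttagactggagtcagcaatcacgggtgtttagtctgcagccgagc
FAT1 and CELSR2 each hold 1 CANNTG, neither of the CACCTG form, and PCDH18 holds 0. The motif GCCNNNGGC, which TFAP2 proteins bind and which also reads the same on both strands, occurs 2 times in FAT1, 0 times in CELSR2, PCDH18 and CDH2, 2 times in DSC2 and 1 time in DSG2, and in 28.9% of all windows. Of the 29 windows matched among the 44 genes, 6 hold it (20.7%). Its part in the differences was not tested.

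Other cadherin-superfamily genes and the clustered protocadherins were read beside the set. Of 11 further cadherin-type genes, 2 were lower and 9 short of the threshold, while 22.9% of all genes were lower. Both means were dim in 9 of the 11, and 15.9% of all such genes passed. With only genes above the median expression tested, 1 of the 11 was lower. CDH19, a type II cadherin of the neural crest and Schwann cell lineage that lies on chromosome 18, was at 6.30, 6.56 and 6.62 in colonies and at 8.49, 8.29 and 8.42 in parent cells. The fall (-1.91 ± 0.09, adjusted p = 3.5e-06) exceeded that of every gene of the set, beside a neighbour median of 0.05. The calsyntenin gene CLSTN3 changed by -0.55 ± 0.07. Among 29 measured clustered protocadherins, which neurons use in combinations for self-recognition, 19 were lower, 0 higher and 10 short of the threshold, against 22.9% of all genes lower. The list's median was -0.31, and with only genes above the median expression tested 1 was lower. The falls were in 13 of 16 PCDHB genes and 6 of 12 PCDHA genes. PCDHB16 was at 5.65, 5.36 and 5.81 in colonies and at 7.54, 7.53 and 7.51 in parent cells (-1.92 ± 0.10), and PCDHB15 (-1.79 ± 0.12) and PCDHB14 (-1.76 ± 0.13) followed. These genes are near-identical copies in places, so their probe sets may share signal and single values are uncertain, 25 of the 29 were dim in both groups, and the neighbours' median on chromosome 5 was -0.23.

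Transcription factors known to regulate cadherin genes, with KLF, epithelial and splicing regulators, numbered 17, with 6 higher, 2 lower and 9 short of the threshold, while 43.8% of all genes passed. In 10 of the 17 a group lay above the array median, and 7 of these passed, against 68.7% of all such genes. Without colony replicate 1, or without colony replicate 2, 1 was lower. TFAP2A, a factor of the neural crest lineage, was at 11.84, 11.81 and 11.76 in colonies and at 9.76, 9.72 and 9.71 in parent cells (2.07 ± 0.04). SNAI2, known as a repressor of CDH1, was at 12.86, 12.85 and 12.84 in colonies and at 11.48, 11.58 and 11.57 in parent cells (1.31 ± 0.05). ZEB2 rose by 0.64 ± 0.04. Also measured, and named after their values were seen, were KLF4, TWIST1, SNAI1, TCF3, TCF4 and ZEB1. KLF4 (0.46 ± 0.07, dim in both groups), TWIST1 (0.35 ± 0.05), SNAI1 (0.20 ± 0.05), TCF3 (-0.24 ± 0.05) and TCF4 (-0.33 ± 0.09) passed the test. ZEB1 (0.02 ± 0.04) did not. The higher SNAI2 and ZEB2 values stood beside a lower CDH2 and a CDH1 that was dim in both groups.

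Genes for enzymes that cut, traffic or dephosphorylate cadherins numbered 17, with 8 higher, 5 lower (3 under quantile normalization) and 4 short of the threshold. A group lay above the array median in 16 of the 17, and 68.7% of all such genes passed. FURIN, a protease that removes the propeptide of cadherin precursors, was at 7.75, 7.73 and 7.84 in colonies and at 9.25, 9.27 and 9.41 in parent cells (-1.54 ± 0.06). The receptor phosphatase gene PTPRF (0.77 ± 0.06) and the membrane protease gene MMP14 (0.69 ± 0.05) rose, as did ADAM10 (0.22 ± 0.04), the main sheddase of CDH2, named after its values were seen.

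**Figure D4:**
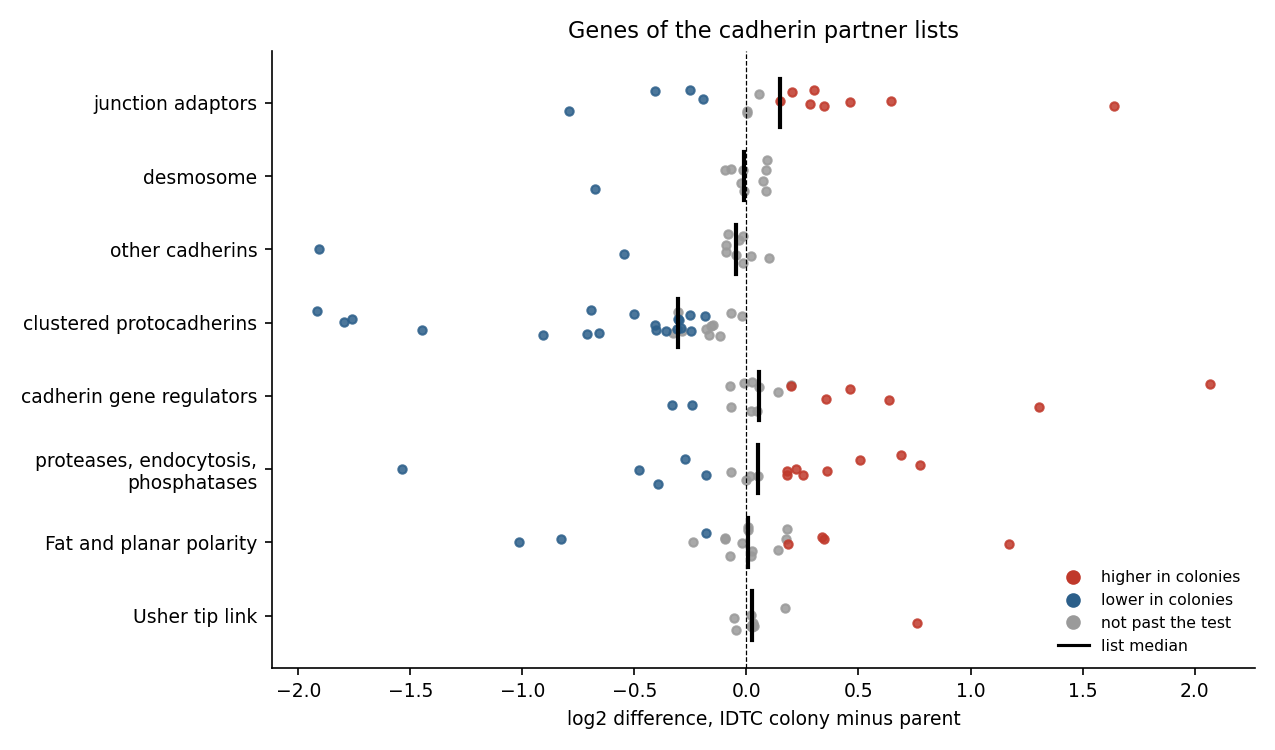
Log2 difference, colony minus parent (x axis), of every measured gene in the 8 partner lists (y axis); red marks genes higher in colonies, blue lower, grey not past the test, and bars the list medians. All 29 measured clustered protocadherins, among them 1 PCDHG gene, lie below 0, with a median of -0.31. The junction adaptors have a median of 0.15.

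Genes used as markers of other cell types were read in the same arrays. All samples are labelled as 1 cell line. These values are RNA levels and do not count cells, and whether other cells were present was not tested. Beside the counts that follow, 43.8% of all genes passed the test, and 15.9% of those dim in both groups. None of 7 keratinocyte markers passed the test (6 dim, summed log2 values 39.3 to 39.5 in colonies and 39.2 to 40.2 in parent cells), and none of 9 endothelial markers did (all dim, 48.4 to 48.9 in colonies and 48.2 to 49.0 in parent cells). Of 9 fibroblast markers 2 were lower and 0 higher, with sums of 50.7 to 50.9 in colonies and 50.5 to 51.4 in parent cells. Of 8 muscle and neuron markers 1 was higher and 1 lower, with sums of 47.6 to 48.0 in colonies and 46.9 to 47.9 in parent cells. Of 8 leukocyte markers 3 were lower, namely LYZ (-2.35), FCER1G (-1.44) and CD68 (-1.27), named after their values were seen, with sums of 44.3 to 44.4 in colonies and 49.1 to 49.5 in parent cells, while the defining leukocyte gene PTPRC averaged 3.71 in colonies and 3.67 in parent cells. The part of these markers in the cadherin results was not tested.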

How the data were processed

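RNA of 3 IDTC colony and 3 parent samples was read on single-colour Affymetrix whole-transcript arrays. The authors deposited log2 expression values per probe set, as the range of the values shows. Affymetrix Expression Console is the tool in the submitters' processing notes. Version, background correction and normalization were not given in the sources used here. Groups came from the sample titles. Arrays have no read depth, and their number limits the precision.

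Of 33297 probe sets, 19460 carried 1 gene symbol in the platform annotation, and 19429 of these matched the reference gene table (GRCh38.p14) by Entrez ID. The probe set with the highest mean stood for each gene, which gave 18417 genes, and dim genes were kept. The test was limma's moderated fit (lmFit, then eBayes), 2-sided, with group as its single factor. P-values were adjusted by Benjamini-Hochberg across the 18417 genes, with 0.05 as the threshold, and family genes were read from this 1 fit. The neighbour median is that of the 50 nearest genes above the median expression in the gene order, 25 on each side. No set test was run.

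All measured genes of the set were eligible to be named, with values per array for those past the test by at least 2-fold, for those above the array median that passed, and for CDH1, CDH2, CDH3 and CTNNA1, and with up to 3 genes of each partner list. CTNND1 was in that rule too and was not analysed here. Values per array of CDH7, CDH8, CDH12, CELSR3, DCHS1, PCDH1, PCDH9 and PCDH10 were added after they were seen. The genes, lists and tests were chosen with earlier results of these data known. Alternatives were quantile normalization, a common array median, a restriction to genes above the median expression, averaged probe sets per gene, all probe sets, a trended robust eBayes, a replicate block, each array left out and the neighbour median subtracted. Software was limma 3.58.1 under R 4.3.3, and Python 3.11.15 (matplotlib 3.10.9, pandas 2.3.3, numpy 2.4.6).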

Additional observations from a re-analysis of the deposited data

How the results depend on the processing

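Of the 14 calls among the family genes, 11 passed in every alternative that tested them, including CDH2 (-1.46 to -1.35), DSG2, DSC2, FAT1, FAT4, CELSR1, CELSR2 and PCDH18. The exceptions were CDH8, CDH12 and PCDH10, and PCDH10 turned to 0.16 with the neighbour median subtracted. PCDH1 passed in 6 of 13 alternatives, and CDH23, PCDH17, DCHS1 and DCHS2 in 1 each. Each family gene had 1 probe set, so averaging probe sets or testing all of them left its values unchanged. Both settings are counted among the alternatives, here and for PCDH10 above. With only genes above the median expression tested, 1 family gene was higher and 5 were lower, against 5 and 9 in the main comparison. Of the partner genes 17 were lower against 36. This setting removes dim genes by construction. It goes by the mean over all arrays, so it also removes PCDH18, which was above the array median in colonies alone. The 5 lower include PCDH1 (limma adjusted p = 0.0219), which did not pass in the main comparison. Without 1 array, 5 to 6 family genes were higher and 6 to 11 lower, the 6 being without parent replicate 2. The replicate numbers in the titles are shared. Deviations of same-numbered arrays correlated at -0.09, -0.06 and -0.01, and those of arrays with unlike numbers at -0.05 to 0.11. No effect shared by same-numbered arrays was seen, but with 3 arrays per group this cannot show whether the samples were paired. With the replicate block 5 family genes were higher and 9 lower, and 3633 genes in all were higher and 3931 lower. The count of genes dim in both groups was 35, or 32 with the lowest median over all probe sets as the limit, chosen after seeing the data. Neither scan dates nor batches are in the sources used here, so a batch effect matching the groups cannot be told apart from the group difference.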
